A study of Mus musculus with 6 samples.

Results

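The genes described here are named after the mouse translation initiation factors, the proteins that bring messenger RNA, ribosomal subunits and the first transfer RNA together. They were chosen by name from the deposited table of 17691 genes. Of 55 names that begin with Eif and a digit from 1 to 6, 5 were set aside by name. These are the eIF2 kinases Eif2ak1 to Eif2ak4, which regulate a factor without being one, and the Y-linked copy Eif2s3y. Other regulators with such names, among them Eif4ebp1 to Eif4ebp3, were kept and count as initiation factor genes below. A further gene, Eif4e1b, had fewer than 10 counts in too many libraries (at least 3 libraries with 10 counts were required), which left 49 genes. All 49 also passed the filter on low counts of the test over all genes, and all 49 matched a gene of the RefSeq annotation. RNA was measured in fetal liver erythroblasts, immature red cells that still have a nucleus, of the mouse strain C57BL/6J. They had been purified as negative for TER119, a glycophorin-associated antigen that marks more mature red cells, and were grown with erythropoietin (Epo). The 3 untreated libraries come from these cells without further addition, and the 3 CDs libraries from the same kind of culture with carbon dots, nanometre-sized carbon particles prepared from Codonopsis pilosula, at 1 ug/ml for 30 h. The labels name no genotype other than the strain and give no age. They also do not say whether the replicates of a group were separate cultures or litters, so the p-values reflect the spread among these libraries only, which may be technical.

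Initiation begins when eIF2, loaded with GTP and the initiator transfer RNA, joins the small ribosomal subunit together with eIF1, eIF1A, eIF3 and eIF5. The messenger RNA is brought in through its cap by eIF4F, made of the cap-binding eIF4E, the scaffold eIF4G and the helicase eIF4A. The complex then scans to the start codon, where eIF5 prompts GTP hydrolysis and eIF5B joins the large subunit. Supply is controlled at both entry points: eIF2B recharges eIF2 with GTP and is blocked when eIF2 is phosphorylated, and the 4E-binding proteins hold eIF4E away from eIF4G unless mTORC1 phosphorylates them. Erythroblasts make globin in bulk, and their eIF2 kinase HRI, encoded by Eif2ak1, ties initiation to the supply of heme.

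Library totals lay between 17695997 and 20066581 expected counts, and the initiation factors held 0.9% to 1.46% of them. All 10 erythroid markers of the list were detected in each library, with the globin gene Hba-a1 at 31194 to 40299 CPM (counts scaled to the library total), while Kit, a progenitor receptor, lay at 9.35 to 17.7 CPM. The libraries differ along an axis that runs through both groups, on which each CDs library also stood above the untreated library of its number. The summed level of 15 macrophage markers was 196, 563 and 5080 CPM in untreated 1 to 3 and 459, 1857 and 6505 CPM in CDs 1 to 3. Of these 15, 13 passed the filter on low counts, Cd163 and Timd4 did not, and Timd4 was at 0 in untreated 2. Summed endothelial markers (6.56 to 81.9 CPM), granulocyte markers (164 to 785 CPM) and hepatocyte markers (214 to 651 CPM) were also highest in CDs 3. Deviations from the group means correlated between libraries of the same number, at 0.91 and 0.938 for numbers 1 and 3 but only 0.345 for number 2. Each CDs library is therefore also compared below with the untreated library of its number, called a pair. No label states this pairing. It was taken from the same expression values, and p-values from fits that use the replicate number depend on it.

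Per base of transcript the most abundant initiation factor gene was Eif5a, at 1023 ± 265 FPKM (fragments per kilobase of transcript, scaled to the library, SD, n = 3) in untreated cells, followed by Eif4a1 at 539 ± 108 and Eif1 at 460 ± 73.2 FPKM. The next 8 places all belong to subunits of eIF3, from Eif3f at 318 ± 52.1 FPKM to Eif3l at 152 ± 35.8 FPKM. Apart from the step from Eif3k (261 ± 30.6 FPKM) to Eif3d (183 ± 41.6 FPKM), neighbours in that stretch differ by less than the larger of their SDs, so most of its internal order is not resolved. The lowest levels were those of Eif4e3 (2.43 FPKM), Eif3j2 (2.92 FPKM) and Eif5a2 (4.30 FPKM).

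With CDs the initiation factors lay slightly below untreated cells as a group, by a median log2 fold change of -0.17 against 0.011 over all genes tested. In the edgeR test on counts, 42 of the 49 genes had a log2 fold change below 0, where 48.1% of all genes did. The range ran from -0.38 (Eif3j2) to 0.57 (Eif4e3), and the other 47 genes lay between -0.29 (Eif2b3) and 0.24 (Eif1a). In the numbered pairs 36 of the 49 were lower in the CDs library of all 3 pairs, against 26.2% of all genes, and 3 were higher in all 3 (Eif1a, Eif4e3 and Eif4ebp3), against 30.2%. The pair medians of the group were -0.11, -0.17 and -0.22 on the log2 scale for pairs 1 to 3, with 38, 44 and 42 of the 49 genes lower. Over all genes the same medians were 0.036, -0.003 and -0.004.

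With edgeR's quasi-likelihood test 0 of the 49 genes reached an adjusted p of 0.05, and 0% of all genes were called. At an unadjusted p under 0.05 the count was 0 of 49 as well, beside 1.03% of all genes, and DESeq2 called 0 of 49 beside 0.114% of all genes. In each of the 49 genes the untreated and CDs libraries overlapped, where 2.33% of all genes were lower and 2.37% higher without overlap. When the replicate number entered the edgeR fit as a block, still 0 of the 49 passed 0.05 (0.0407% of all genes did), but 5 passed 0.10 on the lower side, against 3.13% of all genes, and 0 on the higher side, against 5.17%. These 5 are Eif2d, Eif2b1, Eif2b3, Eif3i and Eif4ebp1. In the blocked fit 28 of 49 had an unadjusted p under 0.05 on the lower side, beside 11.9% of all genes, and 1 (Eif4e3) on the higher side, beside 18.0%. DESeq2 with the block called 1 initiation factor lower, Eif3i, beside 2.08% of all genes, and 0 higher, beside 7.70%. The median depended on single libraries: it was 0.012 without CDs 3, -0.044 without untreated 1, -0.11 without untreated 2, -0.24 without CDs 2, -0.33 without CDs 1 and -0.34 without untreated 3. With both libraries numbered 3 left out it was -0.16.

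**Figure D1:**
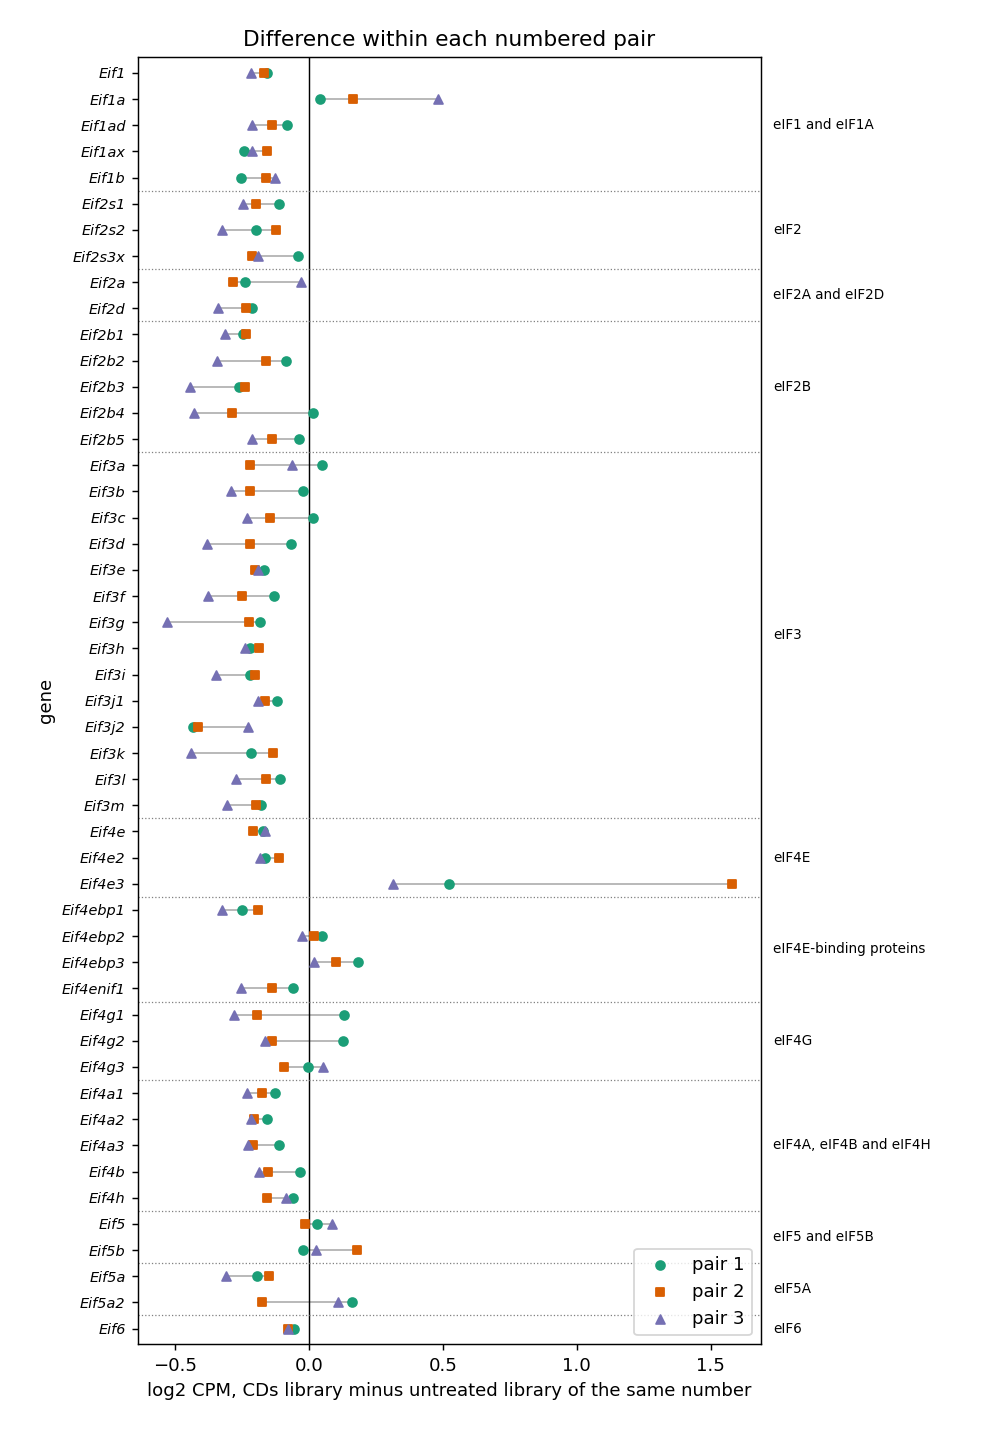
Difference in log2 CPM between the CDs and the untreated library of each numbered pair (x axis) for the 49 initiation factor genes (y axis, grouped by complex); each point is 1 pair and grey lines join the 3 pairs of a gene. Most points lie left of 0, with 36 genes lower in all 3 pairs, and Eif4e3 stands apart on the right at 0.52, 1.58 and 0.31.

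Promoters are shown because messages of the translation machinery often begin with a C and a run of pyrimidines, through which mTORC1 and LARP1 regulate them, and because many such genes carry the E-box CACGTG bound by MYC. RefSeq promoter windows of GRCm38.p6 (250 bases before to 50 after a start) were at hand for 38 of the 49 genes. A run was counted as a C followed by at least 7 letters that are C or T, on the sense strand, taken from the C within 5 bases of the start that gives the most letters, whatever precedes it. It was found in 5 of 38 genes (13.2%), against 5.2% of all genes with a window and 5.8% of the tested ones. CACGTG, which reads the same on both strands, lay in the window of 10 of 38 genes (26.3%), against 8.1% of all and 11.8% of tested genes, and only Eif3f held both patterns. The 5 genes with a run, given as 50 bases before to 25 after the start with the run in capitals, are as follows.
Eif3f (chr7:108934365-108934439, plus strand): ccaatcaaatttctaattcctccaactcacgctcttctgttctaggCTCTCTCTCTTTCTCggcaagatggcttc
Eif2s3x (chrX:94212627-94212701, minus strand): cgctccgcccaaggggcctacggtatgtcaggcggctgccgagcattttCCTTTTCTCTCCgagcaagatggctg
Eif3l (chr15:79075173-79075247, plus strand): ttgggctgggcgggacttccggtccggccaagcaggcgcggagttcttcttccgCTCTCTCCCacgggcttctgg
Eif2b2 (chr12:85219431-85219505, plus strand): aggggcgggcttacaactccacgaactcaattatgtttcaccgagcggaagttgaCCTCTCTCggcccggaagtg
Eif2b5 (chr16:20498767-20498841, plus strand): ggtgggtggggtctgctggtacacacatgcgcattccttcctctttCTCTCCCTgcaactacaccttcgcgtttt
Counted this way the run has 15 letters in Eif3f and 12 in Eif2s3x, where it begins next to the annotated start. In Eif2s3x and Eif2b5 further pyrimidines stand directly before the capitals, outside the counted run. All 5 genes were lower in the CDs library of all 3 pairs, with a median log2 fold change of -0.17. The 33 genes without a run had the same median to 2 decimals, and 24 of them were lower in all 3 pairs. In Eif3k, Eif1b and Eif4g1 the E-box falls within the same 75-base stretch and is shown in capitals.
Eif3k (chr7:28981864-28981938, minus strand): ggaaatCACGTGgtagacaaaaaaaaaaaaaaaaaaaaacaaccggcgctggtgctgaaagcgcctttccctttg
Eif1b (chr9:120492556-120492630, plus strand): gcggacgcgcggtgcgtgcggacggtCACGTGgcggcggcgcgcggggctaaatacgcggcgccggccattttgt
Eif4g1 (chr16:20672677-20672751, plus strand): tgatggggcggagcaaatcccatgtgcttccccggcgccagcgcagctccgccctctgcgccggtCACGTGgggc
The 10 genes with the E-box (Eif1b, Eif3a, Eif3f, Eif3k, Eif4a1, Eif4e, Eif4g1, Eif4h, Eif5a and Eif5a2) had a median of -0.18, and the 28 without it -0.17. Genes with and without either pattern thus lay close together in their RNA fold changes. Translation of these messages was not measured.

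The group of the start codon selection factors eIF1 and eIF1A had 4 of 5 genes below 0. Among the 5 is Eif1ad (-0.13 ± 0.26), grouped here by its name, which encodes neither eIF1 nor eIF1A. Eif1, which guards against initiation at wrong codons (Entrez 20918, chromosome 11, 100319949 to 100322099), measured 662, 629 and 463 CPM in untreated 1 to 3 and 594, 559 and 399 CPM in CDs 1 to 3. Each CDs library was lower than its partner by a similar step, yet CDs 1 and CDs 2 lay above untreated 3, so the groups overlapped. The log2 fold change was -0.18 ± 0.23 (SE, edgeR adjusted p = 0.994), and -0.18 ± 0.058 with the block (adjusted p = 0.122). Its close paralogue Eif1b ran far lower with the same course, at 49.9, 44.5 and 33.0 CPM against 41.8, 39.8 and 30.3 CPM.

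Eif1ax and Eif1a encode near-identical forms of eIF1A, the factor that sits in the ribosomal A site during scanning, and they moved apart. Eif1ax, on chromosome X, measured 126, 117 and 72.2 CPM untreated and 107, 105 and 62.3 CPM with CDs (log2 fold change of -0.20 ± 0.31). Eif1a measured 35.2, 30.9 and 32.9 CPM untreated and 36.2, 34.6 and 46.0 CPM with CDs (0.24 ± 0.15, edgeR adjusted p = 0.994; with the block adjusted p = 0.191). Only CDs 3 stood clearly above the rest in Eif1a, and the other CDs libraries lay within 4 CPM of their partners. The ratio of Eif1a to Eif1ax in FPKM was 0.0868, 0.0824 and 0.142 untreated and 0.105, 0.103 and 0.230 with CDs, higher in 3 of 3 pairs with overlapping groups. Short single-end reads can be divided between such copies, so these values are uncertain.

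The eIF2 complex, which carries the initiator transfer RNA, had all 3 subunit genes below 0 and lower in all 3 pairs. Eif2s1, the alpha subunit whose phosphorylation shuts down initiation (chromosome 12, 78862072 to 78887010), measured 312, 275 and 181 CPM untreated and 289, 240 and 152 CPM with CDs. Eif2s2, the beta subunit (chromosome 2, 154871410 to 154892906), measured 469, 407 and 274 CPM untreated and 409, 373 and 219 CPM with CDs. Both genes declined more steeply from the libraries numbered 1 to those numbered 3 than between treated and untreated, and their log2 fold changes were -0.17 ± 0.32 and -0.20 ± 0.32. The gamma subunit gene Eif2s3x had -0.14 ± 0.30, and a share of its reads may come from its Y-linked copy.

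The exchange factor eIF2B had 5 of 5 genes below 0, with a median of -0.20, and 4 of 5 lower in all 3 pairs. Eif2b3, the gamma subunit (chromosome 4, 117019399 to 117086852), measured 55.6, 47.3 and 26.7 CPM untreated and 46.4, 40.2 and 19.6 CPM with CDs. The CDs library was the lower one in each pair, but untreated 3 lay below CDs 1 and CDs 2. Without the block the log2 fold change was -0.29 ± 0.42 (edgeR adjusted p = 0.994), and with it -0.31 ± 0.074 (adjusted p = 0.0961). Eif2b1, the regulatory alpha subunit, gave 49.6, 41.8 and 29.3 CPM against 41.8, 35.5 and 23.6 CPM, with a blocked log2 fold change of -0.26 ± 0.066 (edgeR adjusted p = 0.0996). Only Eif2b4 had a pair without a decrease, pair 1 at 0.017 on the log2 scale.

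Eif2d and Eif2a encode factors that can place an initiator transfer RNA without eIF2, and both genes were lower in 3 of 3 pairs. Eif2d (Entrez 16865, chromosome 1, 131153172 to 131187659) measured 88.3, 88.5 and 64.8 CPM untreated and 76.2, 75.1 and 51.3 CPM with CDs. Here the CDs libraries 1 and 2 lay closely together below their partners, and only untreated 3 fell among the CDs values. Its log2 fold change was -0.25 ± 0.22 (edgeR adjusted p = 0.994), and -0.26 ± 0.060 with the block (adjusted p = 0.0939), the smallest of the 49 genes in edgeR with the block. Eif2a had -0.20 ± 0.23.

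eIF3, the large scaffold that binds the small ribosomal subunit and keeps it apart from the large one, is the complex with the most genes. All 14 of them were below 0, with a median of -0.20 and a range from -0.38 (Eif3j2) to -0.072 (Eif3a), and 12 of 14 were lower in all 3 pairs. In the blocked fit 11 of the 14 had an unadjusted p under 0.05 on the lower side, beside 11.9% of all genes. Eif3i, a WD-repeat subunit (Entrez 54709, chromosome 4, 129591974 to 129600648), measured 228, 216 and 146 CPM untreated and 196, 188 and 115 CPM with CDs. The CDs libraries were lower by 0.22, 0.20 and 0.35 on the log2 scale, and the groups overlapped only through untreated 3. The fold change was -0.24 ± 0.28 without the block (edgeR adjusted p = 0.994) and -0.26 ± 0.061 with it (adjusted p = 0.0961), and Eif3i was the initiation factor that fell in DESeq2 with the block (adjusted p = 0.0472).

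Eif3g, an RNA-binding subunit (-0.27 ± 0.34), and Eif3k (-0.24 ± 0.22) had the largest differences of the complex in pair 3, at -0.53 and -0.44 on the log2 scale. Eif3a and Eif3b, which form the core that holds the complex together, had -0.072 ± 0.28 and -0.15 ± 0.37. Eif3a and Eif3c were the 2 genes of the complex that were not lower in pair 1, at 0.048 and 0.016 on the log2 scale. Eif3j2 was barely expressed, at 3.95 to 9.62 CPM, and is a near-copy of Eif3j1 (-0.15 ± 0.32), so reads could be divided between them. The summed level of the complex was 4431, 4158 and 2916 CPM untreated and 4139, 3627 and 2402 CPM with CDs, a decline within every pair and a larger one from number 1 to number 3.

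**Figure D2:**
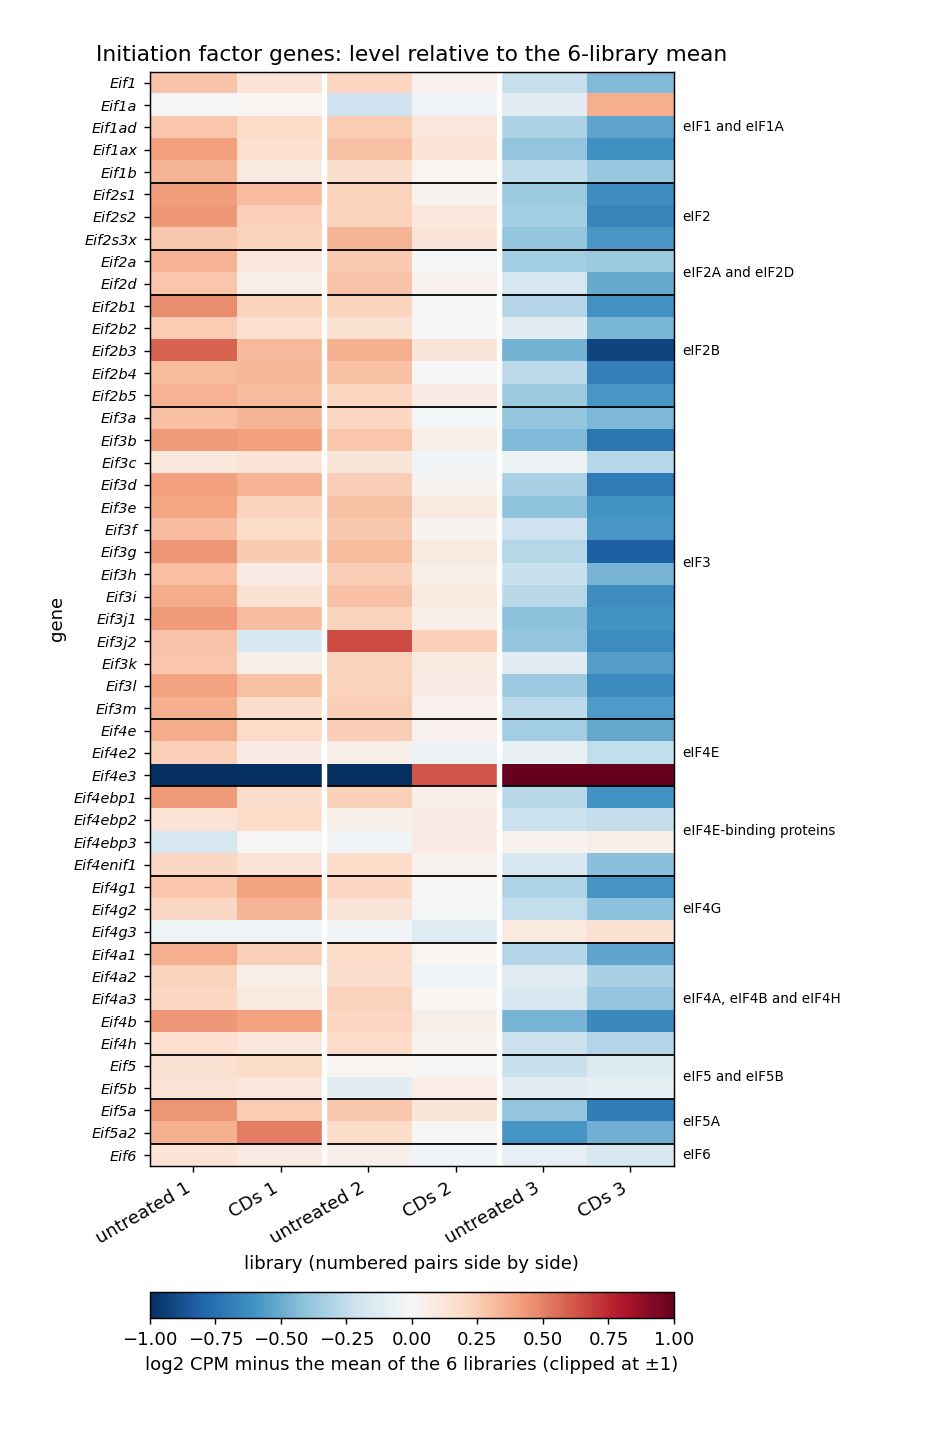
Level of each initiation factor gene (rows, grouped by complex) in each library (columns, pairs side by side) as log2 CPM minus the mean of the 6 libraries, with colours clipped at ±1. Rows are mostly red in the libraries numbered 1 and blue in those numbered 3, and the CDs column of a pair is mostly the bluer one; Eif4e3 runs the other way.

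The cap-binding proteins split into genes with opposite courses. Eif4e, the cap-binding subunit of eIF4F (chromosome 3, 138526191 to 138559696), measured 211, 194 and 128 CPM untreated and 187, 168 and 115 CPM with CDs, or -0.18 ± 0.27 on the log2 scale. Eif4e2, a homologue that binds the cap without recruiting eIF4G, measured 110, 97.0 and 88.9 CPM untreated and 98.0, 89.8 and 78.4 CPM with CDs (-0.15 ± 0.14). Both were lower in all 3 pairs, with overlap between the groups. Counts and FPKM of Eif4e2 disagree more than those of any other initiation factor with enough counts to compare (RMS of 0.0484 on the log2 scale, against a median of 0.00519 over 8317 genes).

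Eif4e3, the third homologue of the cap-binding protein (Entrez 66892, chromosome 6, 99621879 to 99692873), spanned a wider range over the 6 libraries than any other of the 49 genes. It measured 1.09, 2.20 and 15.0 CPM untreated and 1.60, 6.79 and 18.6 CPM with CDs. CDs libraries exceeded their partners by 0.52, 1.58 and 0.31 on the log2 scale, but untreated 3 lay above CDs 1 and CDs 2. The log2 fold change was 0.57 ± 1.26 (edgeR adjusted p = 0.994), and 0.79 ± 0.29 with the block (adjusted p = 0.151). Its 6 values follow the same order as the summed macrophage markers, whose part in the result was not tested. Leaving out CDs 3 turned the fold change to -0.53, and leaving out untreated 3 gave 2.45.

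The 4E-binding proteins, which compete with eIF4G for eIF4E, had no common direction (median -0.061, with 2 of 4 genes below 0). Eif4ebp1 (Entrez 13685, chromosome 8, 27260327 to 27275656) measured 140, 123 and 85.8 CPM untreated and 118, 108 and 68.4 CPM with CDs. All 3 pairs were lower with CDs, for a log2 fold change of -0.25 ± 0.28 (edgeR adjusted p = 0.994) and -0.26 ± 0.059 with the block (adjusted p = 0.0955). Eif4ebp2 hardly differed in any pair, at 257, 242 and 202 CPM untreated and 266, 245 and 198 CPM with CDs (0.018 ± 0.17, with a sign that turns under DESeq2 size factors). The small Eif4ebp3 measured 9.56, 10.6 and 11.1 CPM untreated and 10.9, 11.4 and 11.2 CPM with CDs (0.10 ± 0.15). The ratio of Eif4ebp1 to Eif4ebp2 in FPKM was 2.06, 1.90 and 1.65 untreated and 1.69, 1.74 and 1.36 with CDs, lower in 3 of 3 pairs. Eif4enif1, a shuttling protein that carries eIF4E into the nucleus, had -0.14 ± 0.20.

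The eIF4G scaffolds had all 3 genes below 0, but 0 of 3 were lower in all 3 pairs. Eif4g1, the main scaffold (chromosome 16, 20672720 to 20692883), measured 769, 733 and 512 CPM untreated and 842, 641 and 423 CPM with CDs. Eif4g2, a relative that lacks the eIF4E-binding part, measured 1356, 1280 and 986 CPM untreated and 1481, 1162 and 880 CPM with CDs. Both were higher with CDs in pair 1 (0.13 and 0.13 on the log2 scale) and lower in pairs 2 and 3, with log2 fold changes of -0.080 ± 0.31 and -0.040 ± 0.25. Eif4g3 stayed between 99.96 and 121 CPM in all 6 libraries (106, 107 and 117 CPM untreated, 106, 99.96 and 121 CPM with CDs), the flattest of the 3.

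The helicase eIF4A and its helpers eIF4B and eIF4H had 5 of 5 genes below 0 and lower in all 3 pairs, with a median of -0.17. Eif4a1, the abundant helicase (chromosome 11, 69666936 to 69672423), measured 1227, 1090 and 777 CPM untreated and 1123, 966 and 661 CPM with CDs (-0.17 ± 0.28). Eif4a2 measured 225, 217 and 178 CPM untreated and 202, 188 and 153 CPM with CDs (-0.19 ± 0.16). The drop within pairs was alike in both helicases, while the decline from number 1 to number 3 was steeper in Eif4a1. Eif4a3, known as a part of the exon junction complex, had -0.18 ± 0.19, Eif4b -0.11 ± 0.36 and Eif4h -0.10 ± 0.18.

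The late factors eIF5 and eIF5B formed the only complex of the 12 with a median above 0 (0.046). Eif5, the GTPase activator of eIF2, had 0.032 ± 0.16, and Eif5b, the GTPase of subunit joining (chromosome 1, 37998010 to 38055579), measured 231, 194 and 194 CPM untreated and 227, 219 and 197 CPM with CDs (0.059 ± 0.13). Eif6, which keeps free large subunits from joining small ones (chromosome 2, 155819837 to 155826925), measured 76.7, 72.3 and 65.9 CPM untreated and 73.8, 68.6 and 62.5 CPM with CDs. Its differences were small but of the same sign in all 3 pairs (-0.069 ± 0.12).

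Eif5a, the hypusine-bearing factor that also helps ribosomes through difficult stretches of peptide (chromosome 11, 69916712 to 69921958), measured 1551, 1374 and 868 CPM untreated and 1358, 1241 and 701 CPM with CDs. Every pair was lower, for a log2 fold change of -0.20 ± 0.35, and -0.22 ± 0.066 with the block (edgeR adjusted p = 0.115). Its rare paralogue Eif5a2 measured 27.4, 24.4 and 14.3 CPM untreated and 30.6, 21.6 and 15.4 CPM with CDs (0.034 ± 0.36), with pairs on both sides of 0. Eif5a and Eif1 have processed copies elsewhere in the genome, which can take reads from them.

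The larger contrast among these libraries ran between the replicate numbers. In untreated 3 the 49 genes lay below untreated 1 by a median of -0.59 on the log2 scale (46 of 49 lower), and in CDs 3 below CDs 1 by -0.74 (45 of 49 lower). Over all genes these medians were -0.003 and -0.010. The summed level of the 49 genes was 15029, 13962 and 10018 CPM in untreated 1 to 3 and 14289, 12497 and 8651 CPM in CDs 1 to 3, which is exactly the reverse of the order of the summed macrophage markers. The summed erythroid markers were also lowest in the libraries numbered 3, at 60475 CPM in untreated 3 and 56035 CPM in CDs 3, against 69366 to 72005 CPM in the other 4. Hba-a1 alone held 33689 and 31194 CPM of these 2 sums. Of the 10 markers, 8 were lower in untreated 3 than in untreated 1, and 9 were lower in CDs 3 than in CDs 1. In untreated 1 to 3 Klf1 fell (735, 689 and 388 CPM), Alas2 stayed level (1699, 1703 and 1712 CPM) and Kit rose (9.35, 11.2 and 15.4 CPM).

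Ordered by the summed macrophage markers, 13 of the 49 genes were lower at each of the 5 steps, against 5.69% of all genes, and 1 was higher at each step, against 9.14%. The 13 are Eif2s1, Eif2s2, Eif2b1, Eif2b2, Eif2b5, Eif3b, Eif3d, Eif3j1, Eif3l, Eif4a1, Eif4b, Eif4e2 and Eif6, and the 1 is Eif4e3. Within each pair the CDs library had both a higher macrophage sum and a lower initiation factor sum than its partner. Not every macrophage marker followed the sum. Of the 13 tested, 11 were higher in all 3 pairs, against 30.2% of all genes, and 1 was lower in all 3, against 26.2%. The lower one was Cd5l, at -1.03, -1.65 and -0.56 on the log2 scale, and Lyz2 was slightly lower in pair 3 (-0.032). The part of macrophage RNA in the lower values was not tested. In bulk RNA, fewer cells of a type and less RNA per cell cannot be told apart.

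**Figure D3:**
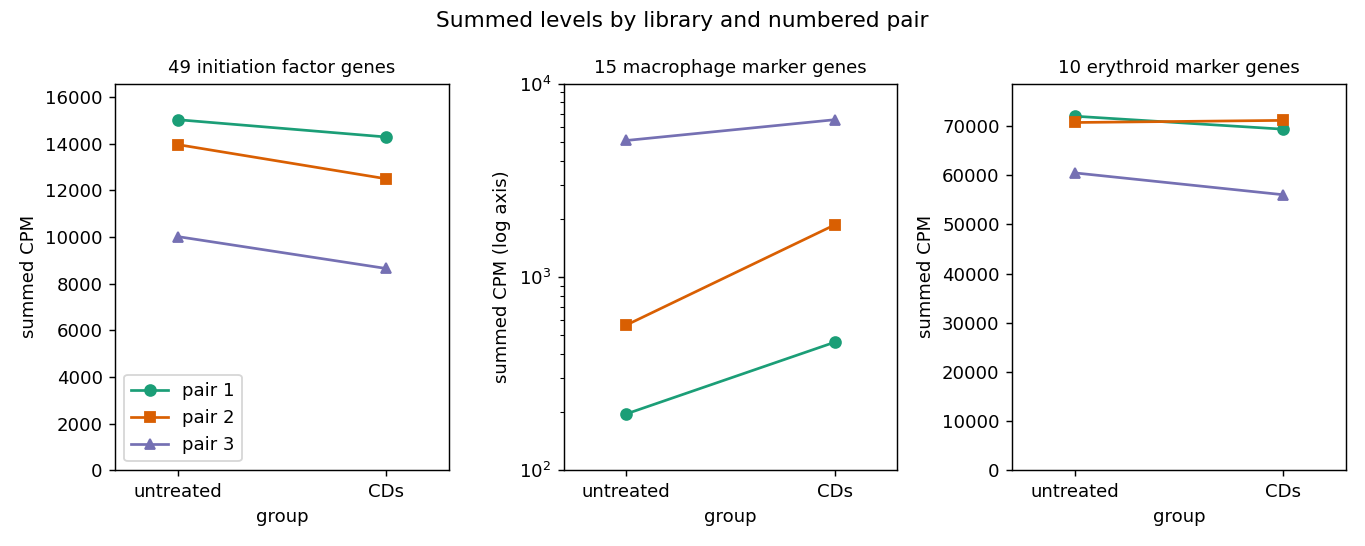
Summed CPM of the 49 initiation factor genes (left), of 15 macrophage markers (middle, log axis) and of 10 erythroid markers (right) in untreated and CDs libraries, with lines joining numbered pairs. The initiation factor sum is lower with CDs in every pair, from 15029 to 14289, from 13962 to 12497 and from 10018 to 8651, while the macrophage sum is higher in every pair.

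Within pairs 1 and 3 the shorter initiation factor transcripts lay lower than the longer ones. Transcript length here is the length implied by counts and FPKM together, from 832 bases in Eif3k to 7952 bases in Eif5b. Across the 49 genes the pair difference ran with log2 length at a Pearson r of 0.520 (Spearman rho of 0.654) in pair 1, 0.127 (0.203) in pair 2 and 0.436 (0.468) in pair 3. These are descriptions over genes of the same 2 libraries, and genes are not independent replicates. Over all 12283 genes the r was 0.217, 0.043 and 0.208. In the shortest of 5 equal length bins of all genes, 16 initiation factors had pair medians of -0.18, -0.18 and -0.23, and all genes of that bin -0.12, -0.058 and -0.13. In the longest bin, 6 initiation factors had 0.087, -0.16 and -0.018, and all genes 0.17, 0.026 and 0.11. The length relation was also present in the table as a whole, and its part in the lower values of short genes such as Eif1, Eif3i and Eif4ebp1 was not tested.

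**Figure D4:**
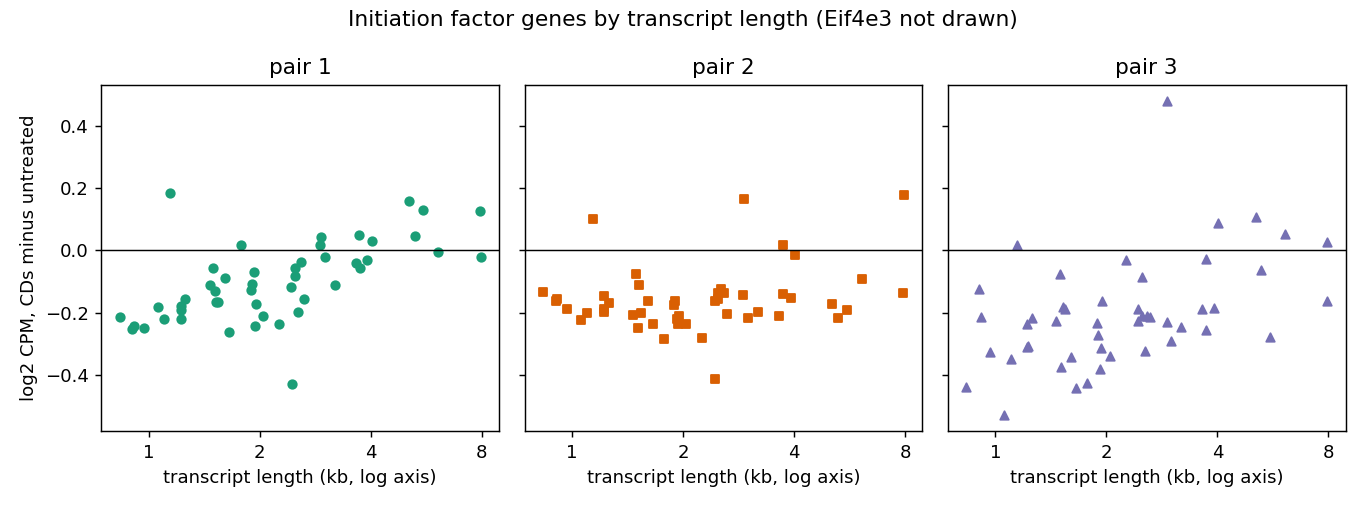
Pair difference in log2 CPM (y axis, CDs minus untreated) against transcript length in kilobases (x axis, log scale) for the initiation factor genes in each of the 3 pairs. Eif4e3 (0.52, 1.58 and 0.31 in pairs 1 to 3) was not drawn. Points climb to the right in pairs 1 and 3 (r of 0.520 and 0.436 with all 49 genes) and less in pair 2 (0.127).

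Other parts of the translation machinery were described by lists, with none of their genes past an adjusted p of 0.05 in edgeR with or without the block. The 82 genes with ribosomal protein names had a median of -0.30, further from 0 than that of the initiation factors, with 79 lower in all 3 pairs. Of them 64 passed an adjusted p of 0.10 on the lower side in edgeR with the block, against 3.13% of all genes. In DESeq2 with the block 73 fell at 0.05, against 2.08% of all genes. The list of elongation factors, which drive the ribosome along the message, also held the related genes Dhps, Dohh, Eef2k and Eef1e1. It lay near the initiation factors, with 9 of 10 tested genes below 0 and a median of -0.19. The gene above 0 was Eef2k (0.038). Eef1b2, the exchange factor subunit of eEF1, measured 450, 421 and 244 CPM untreated and 372, 372 and 191 CPM with CDs (-0.27 ± 0.063 with the block, edgeR adjusted p = 0.0957; DESeq2 with the block, adjusted p = 0.0266). Eef1e1, a scaffold of the transfer RNA synthetase complex, had a blocked log2 fold change of -0.36 ± 0.075 (edgeR adjusted p = 0.0916) and Eef1g, the gamma subunit of eEF1, -0.25 ± 0.073 (adjusted p = 0.111). Eef1a1, which delivers transfer RNA to the ribosome, was past the threshold in DESeq2 with the block (adjusted p = 0.0434). Termination and recycling factors had 5 of 6 genes below 0 with a smaller median of -0.089, and the recycling ATPase gene Abce1 had -0.25 ± 0.091 with the block.

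Poly(A)-binding proteins and their partners had a median of 0.003 with 3 of 7 genes below 0. Larp4, which binds poly(A), was higher in 3 of 3 pairs (blocked log2 fold change of 0.25 ± 0.078) and Pabpc4 lower in 3 of 3 (-0.22 ± 0.076). The list of mTORC1 and MNK signalling genes had a median of -0.047 with 8 of 13 below 0. This signalling acts on the 4E-binding proteins and eIF4E, but the list also held the S6 kinases and the ribosomal protein gene Rps6. Rps6kb2, an S6 kinase, measured 65.3, 68.3 and 64.3 CPM untreated and 59.9, 62.1 and 53.4 CPM with CDs. Its groups did not overlap (-0.17 ± 0.11, edgeR adjusted p = 0.994). In this list 2 of 13 genes were lower without overlap, against 2.33% of all genes. Mlst8, a subunit of mTORC1, had a blocked log2 fold change of -0.17 ± 0.067. Other initiation helpers had a median of -0.024 with 8 of 10 below 0, and Denr, partner of MCTS1 in reinitiation, had -0.23 ± 0.070 with the block.

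The eIF2 kinases and phosphatase subunits had a median of -0.049 with 5 of 7 genes below 0. Eif2ak4, encoding the amino acid sensor GCN2, measured 16.3, 15.8 and 17.9 CPM untreated and 20.4, 18.9 and 18.2 CPM with CDs. This was a small difference without overlap between the groups (0.20 ± 0.13, edgeR adjusted p = 0.994). In this list 1 of 7 genes was higher without overlap, against 2.37% of all genes. Eif2ak2, encoding the kinase PKR that senses double-stranded RNA, was lower in 3 of 3 pairs (-0.12 ± 0.059 with the block, edgeR adjusted p = 0.217). Ppp1r15a, the stress-induced subunit that directs the phosphatase to eIF2, had -0.097 ± 0.16 and Eif2ak1, encoding HRI, -0.065 ± 0.11.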

How the data were processed

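Polyadenylated RNA was read from one end over 50 bases, per the labels' protocols, which name no step that marks strand. Tools listed in the submitters' processing notes, with no role given, are the quantifier RSEM 1.2.12, the aligners Bowtie2 2.2.5 and HISAT2 2.0.4, and DESeq2 1.4.5, on build GRCm38.p6. The authors deposited expected counts (30.1% not whole), which were rounded here, and a second table whose deposited values were taken as FPKM because counts, totals and values imply 1 length per gene. FPKM served for levels between genes, ratios and lengths. Symbols that a spreadsheet had turned into dates (24) were restored, and 17570 genes (99.3%) matched RefSeq by Entrez number.

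The main test was edgeR 4.0.16 in R 4.3.3 (filterByExpr, TMM, robust quasi-likelihood, treatment only, two-sided), with Benjamini-Hochberg adjustment over all 12283 genes and a threshold of 0.05. It was also run on simulated counts drawn with the spread of the fit with the replicate block. That run does not show its power at the larger spread of the fit without the block. Alternatives were RLE scaling, no filter, DESeq2 1.42.0, the replicate block, limma 3.58.1 on log2(FPKM + 0.1) and leaving out libraries. Deviations from the group means correlated at 0.91, 0.345 and 0.938 for numbers 1 to 3, so the numbers were taken to pair the libraries. The biological coefficient of variation was 0.485 without the block and 0.112 with it. Libraries within a group differed beyond sampling noise (chi-square per degree of freedom at least 11.5). With 3 libraries a group, precision is set by the spread between libraries, not by depth.

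Values in every library are given for the gene with the smallest blocked p in each complex and for paralogue sets (and, beyond this rule, for Eif2b1). Values for genes of the other pathway lists are given for up to 3 with the smallest blocked p. Beyond these, Eef1a1, Eef2k and Eif2ak1 were named for their roles, signs or calls after their values were seen. Cell type markers were named without this rule. The members and lists were chosen with earlier results of these data known. CPM use TMM-scaled totals.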

Additional observations from a re-analysis of the deposited data

How the results depend on the processing

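The number of genes called over the whole table was 0 in the main edgeR test, 14 with DESeq2, 5 in edgeR with the replicate block and 1201 in DESeq2 with the replicate block, and the last of these called 1 initiation factor, Eif3i, where the others called 0. The block changed no other call of an initiation factor at 0.05. Leaving out 1 library moved the median of the initiation factors between -0.339 (without untreated 3) and 0.0116 (without CDs 3), and was -0.0436 or -0.114 when untreated 1 or untreated 2 was left out and -0.327 or -0.238 when CDs 1 or CDs 2 was. The number of genes below 0 ran from 22 (without CDs 3) to 44. With RLE scaling, no filter, DESeq2, the block, limma on FPKM or both libraries numbered 3 left out, the median ran from -0.197 to -0.155 and the count from 41 to 44. Leaving out 1 library leaves its numbered partner in a fit without the block. Among the 24 named genes, 12 changed sign in at least 1 alternative. Leaving out 1 library gave ranges of -0.415 to 0.00866 for Eif1ax, -0.542 to 0.000851 for Eif2b3, -0.391 to 0.0467 for Eif2s1, -0.394 to 0.0293 for Eif2s2, -0.348 to 0.0182 for Eif4a1 and -0.412 to 0.0393 for Eif5a, each with the highest value without CDs 3. The ranges were -0.533 to 2.45 for Eif4e3, -0.0828 to 0.13 for Eif4ebp2, -0.343 to 0.143 for Eif4g1, -0.248 to 0.13 for Eif4g2, -0.0949 to 0.0342 for Eif4g3 and -0.258 to 0.246 for Eif5a2. Beyond these, Eif4ebp2 turned to -0.000236 with RLE scaling, -0.000277 with DESeq2 and -0.00283 with DESeq2 and the replicate block, Eif4g3 to 0.00771 with limma on FPKM, and Eif5a2 to -0.0105 with both libraries numbered 3 left out; the cause was not tested. Over these settings the adjusted p of the 49 genes ran from 0.0472 to 1.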

Other observations

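Eif2s3y, the Y-linked copy of the gamma subunit of eIF2, was set aside by name, and its share differs between replicate numbers. The ratio of Eif2s3y to Eif2s3x in FPKM was 0.309 in untreated 1 and 0.324 in CDs 1, 0.166 in untreated 2 and 0.196 in CDs 2, and 0.106 in untreated 3 and 0.131 in CDs 3. Libraries of the same number lay closer to each other than to the other numbers of their group.

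The FPKM ratio of Eif1b to its paralogue Eif1 lay between 0.0979 and 0.106 in all 6 libraries. The ratio of Eif4ebp1 to the gene of its binding partner, Eif4e, lay between 1.20 and 1.35. The ratio of Eif4g3 to its paralogue Eif4g1 was 0.126, 0.132 and 0.210 untreated and 0.114, 0.141 and 0.266 with CDs, highest in both libraries numbered 3.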
